A study of Mus musculus with 12 samples.

Results

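The genes described here are 34 genes of cholesterol and fatty acid synthesis and their regulators, out of 47069 genes in the count table. They were listed by name from their place in these pathways, and all 34 were found by symbol. Each had at least 30 reads in every library, so all 34 passed the filter on low counts that left 16157 genes to test. They fall into 5 groups by role: 8 genes of the mevalonate arm, which builds squalene from acetyl-CoA, 10 of the post-squalene arm, which turns squalene into cholesterol, 5 regulators and carriers, 5 genes of fatty acid synthesis and its supply, and 6 desaturases and elongases.

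RNA was sequenced from cells of mouse liver cancer organoids, which are tumor cells grown in 3 dimensions in culture. All 12 libraries came from mice of the strain C57BL/6 with the genotype labelled LGR5-DTRGFP+, where the *Lgr5* locus drives GFP together with the diphtheria toxin receptor, and the tumors had been induced with diethylnitrosamine. There were 4 groups of 3 libraries: untreated LGR5- cells, untreated LGR5+ cells, LGR5- cells after 5-FU and LGR5+ cells after 5-FU, where plus and minus stand for sorting on GFP. 5-FU is 5-fluorouracil, a chemotherapeutic analog of uracil that blocks thymidylate synthesis and is built into RNA. The mice were young when the diethylnitrosamine injections began and were killed months after the last of them. Their age for each library, the organoid line behind it, and the dose and duration of 5-FU for the sequenced cells are not given in the sources used here. The replicates may therefore be technical, and *P* values then measure only the spread between these libraries.

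Counted reads ranged from 13750591 to 19323514 per library. Levels are given as CPM, counts per 1000000 reads of the tested genes after TMM scaling between libraries. On that scale 3 reads, the limit that a count of 0 allows for counting error alone, are 0.165 to 0.220 CPM. *Lgr5* mRNA did not separate the sorted populations: it lay between 23.0 and 36.0 CPM in the untreated LGR5- libraries and between 23.4 and 27.5 CPM in the untreated LGR5+ libraries (log2 fold change -0.17 ± 0.23, SE, edgeR adjusted *P* = 1). The defining hepatocyte transcripts *Ttr*, *Hnf4a* and *Fgb* had at most 3 reads in every library, with *Fgb* at 0, and *Alb* was at most 1.86 CPM. *Afp*, the fetal liver and liver tumor protein of the same list, had 9.88 to 21.1 CPM in untreated and 25.6 to 54.3 CPM in treated libraries. Of 4 adipocyte transcripts, *Adipoq*, *Plin1* and *Cidec* had at most 3 reads in every library, while *Fabp4*, a fatty acid carrier, had at most 1.66 CPM untreated and 3.92 to 16.8 CPM after 5-FU. Mitochondrial transcripts took 1.47% to 3.08% of the reads, except in replicate 3 of LGR5- cells, where they took 6.93% without and 6.44% with 5-FU.

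Cells make cholesterol by condensing acetyl-CoA to mevalonate, converting that to isoprenoid units and squalene, closing squalene into lanosterol and trimming lanosterol to cholesterol. Fatty acids come from the same acetyl-CoA, and are then lengthened and desaturated. Both branches are switched on by the SREBP transcription factors, made by *Srebf1* and *Srebf2* and held in the endoplasmic reticulum. When sterols run low, SCAP carries the SREBPs to the Golgi, where they are cleaved and released. When sterols are plentiful, INSIG proteins hold SCAP back. The liver is a main site of both syntheses, and growing tumor cells need their products for membranes.

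The region upstream of a gene's start is shown for a few members because SREBPs bind such regions together with NF-Y, which recognises CCAAT, and with Sp1, which recognises GGGCGG. RefSeq start sites on GRCm38.p6 were available here for 27 of the 34 genes, as windows from 250 bases before to 50 bases after each start, and not for *Fdps*, *Fdft1*, *Sqle*, *Stard4*, *Scd1*, *Scd2* and *Fads1*. The stretches below leave out bases inside exons. Capitals mark CCAAT or, on the other strand, ATTGG. The first 3 genes are called lower after 5-FU in both populations in the comparisons that follow, *Fasn* is called in neither, and *Scap* is called higher in both.
*Lss*, chr10:76531355-76531587, + strand: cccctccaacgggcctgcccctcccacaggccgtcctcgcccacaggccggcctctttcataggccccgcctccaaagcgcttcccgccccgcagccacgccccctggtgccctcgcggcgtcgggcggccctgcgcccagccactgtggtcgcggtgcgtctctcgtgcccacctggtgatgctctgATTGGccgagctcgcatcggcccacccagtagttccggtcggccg
*Mvd*, chr8:122443423-122443672, - strand: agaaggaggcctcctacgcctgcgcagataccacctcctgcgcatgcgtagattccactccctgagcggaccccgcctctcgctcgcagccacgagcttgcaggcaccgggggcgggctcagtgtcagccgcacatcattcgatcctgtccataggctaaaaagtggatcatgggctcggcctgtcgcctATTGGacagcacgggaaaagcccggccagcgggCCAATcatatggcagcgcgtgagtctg
*Insig1*, chr5:28071162-28071362, + strand: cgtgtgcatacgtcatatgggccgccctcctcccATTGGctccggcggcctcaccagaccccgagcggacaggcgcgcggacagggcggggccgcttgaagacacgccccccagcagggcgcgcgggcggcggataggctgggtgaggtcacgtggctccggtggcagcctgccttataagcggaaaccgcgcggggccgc
*Fasn*, chr11:120824548-120824797, - strand: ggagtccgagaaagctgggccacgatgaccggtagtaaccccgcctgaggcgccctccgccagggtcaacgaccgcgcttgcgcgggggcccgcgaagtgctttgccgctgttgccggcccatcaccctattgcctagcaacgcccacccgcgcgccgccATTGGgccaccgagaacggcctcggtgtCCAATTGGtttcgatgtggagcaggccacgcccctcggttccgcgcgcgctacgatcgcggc
*Scap*, chr9:110333038-110333287, + strand: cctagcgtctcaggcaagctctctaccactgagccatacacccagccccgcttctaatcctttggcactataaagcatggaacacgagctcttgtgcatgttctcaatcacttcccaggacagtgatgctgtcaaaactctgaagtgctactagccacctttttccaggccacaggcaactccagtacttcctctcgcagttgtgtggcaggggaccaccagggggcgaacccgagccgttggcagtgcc

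In the *Fasn* stretch the run CCAATTGG holds CCAAT and ATTGG overlapping by 2 bases, and the *Scap* stretch holds neither. Counting both strands and every window of a gene, CCAAT was found for 22 of the 27 members (81.5%), against 41.1% of all 27025 genes with such a window and 42.8% of the 10859 of these that were tested. GGGCGG was found for 22 members as well (81.5%), against 38.2% of all genes and 67.1% of those tested. The E-box letters CACGTG were found for 6 members (22.2%), against 8.09% of all genes and 11.5% of those tested. The letters TCACNCCAC, a form of the sterol regulatory element, were found for *Hmgcs1* alone (3.7% of members, 1.44% of all genes), in the stretch below, with the match in capitals.
*Hmgcs1*, chr13:119690204-119690233, + strand: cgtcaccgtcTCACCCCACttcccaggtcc

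Neither a longer form of the sterol regulatory element, found for 0.0999% of all genes, nor the direct repeat of the LXR receptors (DR4), found for 0.0148%, occurred in a member's windows. CCAAT was present in 9 of the 11 members with a window that were called lower in either population after 5-FU and in 13 of the other 16, so its presence was about as frequent in both sets. These are matches of letters in fixed windows, and binding was not measured.

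Per kilobase of exon, the highest member levels over the 12 libraries were those of *Scd2*, a stearoyl-CoA desaturase (mean 93.5 RPKM, which is CPM per kilobase of exon), *Ebp*, a sterol isomerase (87.1 RPKM), and *Acat2*, which starts the mevalonate arm (46.0 RPKM). The lowest were *Acaca*, the acetyl-CoA carboxylase of fatty acid synthesis (0.995 RPKM), *Acss2*, which makes acetyl-CoA from acetate (1.08 RPKM), and *Fdps*, which makes farnesyl diphosphate (1.21 RPKM). These lengths are unions of all annotated exons, which in *Lss*, *Acss2* and *Acaca* come to 10787, 10163 and 17074 bases, so that their levels per length are lower than over a single transcript. The whole set summed to 2883 to 4185 CPM in the untreated LGR5- libraries and to 3058 to 4215 CPM in the untreated LGR5+ libraries. After 5-FU the sums were 2103 to 2697 CPM in LGR5- cells and 2890 to 3005 CPM in LGR5+ cells. In bulk RNA, fewer cells that express a gene and less RNA of it per cell cannot be told apart.

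**Figure D1:**
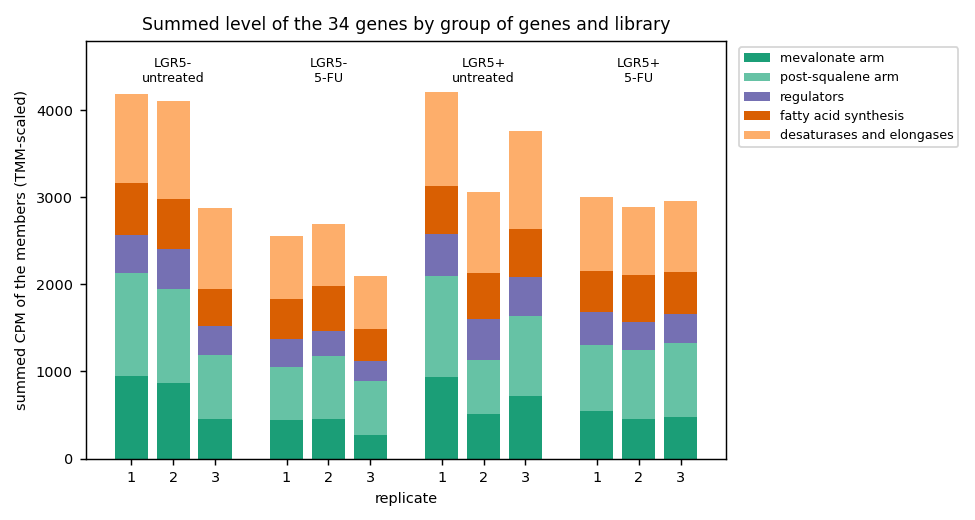
Stacked bars give the summed CPM (scaled by TMM, linear axis from 0) of the 34 genes in each of the 12 libraries, split by the 5 roles, with replicates 1 to 3 of each group side by side. The 3 bars of 5-FU-treated LGR5- cells, at 2103 to 2697 CPM, lie below all 6 untreated bars, while those of 5-FU-treated LGR5+ cells, at 2890 to 3005 CPM, lie below the 3 untreated LGR5+ bars, of which the lowest is 3058 CPM. Replicate 3 of untreated LGR5- cells, at 2883 CPM, lies below all bars of 5-FU-treated LGR5+ cells.

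The first question was how the synthesis genes responded to 5-FU within each sorted population. In LGR5- cells 15 of the 34 genes fell and 1 rose, among them genes of every role but fatty acid synthesis itself. In LGR5+ cells 9 fell and 1 rose, and these 9 are all among the 15. The genes that fell in both populations were *Pmvk*, *Mvd* and *Fdps* of the mevalonate arm, *Lss* and *Tm7sf2* of the post-squalene arm, the sterol sensor partner *Insig1*, the sterol carrier *Stard4*, the elongase *Elovl6* and the desaturase *Fads1*. *Scap* rose in both. A further 6 passed the test in LGR5- cells and missed it in LGR5+ cells, a contrast that is tested further on: *Acat2*, *Mvk*, *Nsdhl*, *Sc5d*, *Dhcr7* and *Scd2*. The remaining 18 genes were called in neither.

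Calls are at an adjusted *P* under 0.05 from edgeR's quasi-likelihood test, with Benjamini-Hochberg adjustment over all 16157 genes. In LGR5- cells 7.11% of all genes were called lower and 8.3% higher, 15.4% in all, and in LGR5+ cells 6.37% were called lower and 9.66% higher, 16% in all. The share of members called lower was therefore above that background in both. The genes were, however, chosen with earlier results of these data known, and the background was not matched for level. The median log2 fold change over the 34 genes was -0.80 in LGR5- cells, against -0.05 over all genes tested, and -0.33 in LGR5+ cells, against -0.02. In LGR5+ cells it was -0.22 without untreated replicate 1 and -0.51 without untreated replicate 2. In 16 of the 34 genes all 5-FU libraries of LGR5- cells lay below all untreated ones and in 1 above, against 13.4% and 13.7% of all genes. In LGR5+ cells this held for 15 and 2, against 20.0% and 22.3%. At the thresholds of the study, which ask for a log2 fold change beyond 1.5 in size and an unadjusted *P* below 0.05, 3 members passed in each population, against 7.0% of all genes in LGR5- and 7.23% in LGR5+ cells. They were *Acat2*, *Lss* and *Elovl6* in LGR5- cells, and *Fdps*, *Tm7sf2* and *Elovl6* in LGR5+ cells.

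The number called in LGR5- cells depended on single libraries, as did the share of all genes called. It was 24 without untreated replicate 3 (20.8% of all genes called), where all 16 were called again and *Hmgcs1*, *Idi1*, *Fdft1*, *Sqle*, *Cyp51*, *Msmo1*, *Srebf2* and *Fads2* were added. It was 9 without untreated replicate 1 (9.36% of all genes), 9 without untreated replicate 2 (9.85%) and 8 without 5-FU replicate 3 (10.8%). A fit of the LGR5- libraries alone called 10 members and 8.35% of all genes. It ended the calls of *Mvd*, *Pmvk*, *Mvk*, *Nsdhl*, *Fads1* and *Scd2* (adjusted *P* = 0.0990, 0.0878, 0.168, 0.129, 0.0521 and 0.179, edgeR). Without the filter on low counts the calls of *Acat2*, *Mvk* and *Scd2* ended (0.0812, 0.0639 and 0.180), and with the size factors of DESeq2 those of *Mvk* and *Nsdhl* (0.0548 and 0.0536).

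**Figure D2:**
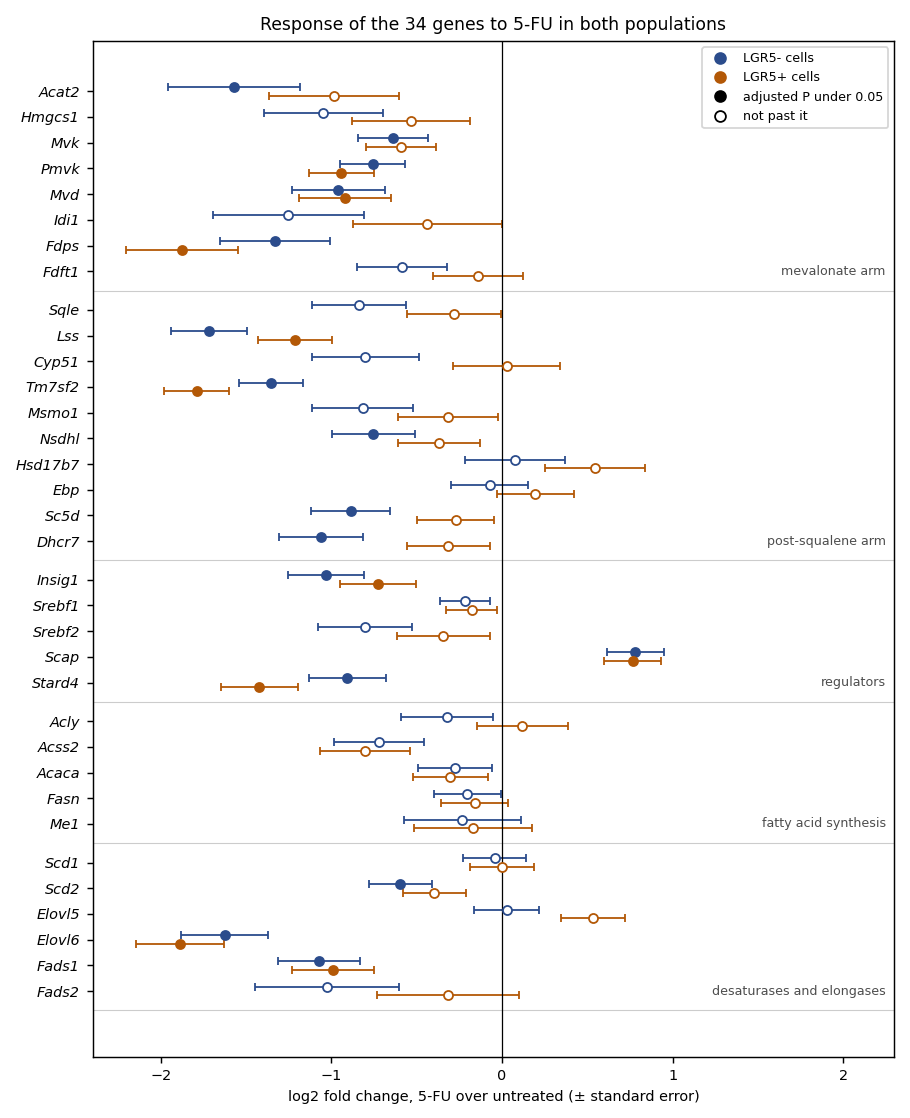
Each row is 1 of the 34 genes, grouped by role, and the x axis is the log2 fold change of 5-FU over untreated cells with its standard error as a bar, from edgeR, for LGR5- cells (blue) and LGR5+ cells (orange). Filled points have an adjusted *P* under 0.05: 16 in LGR5- cells and 10 in LGR5+ cells, of which only *Scap* lies right of 0, at 0.78 and 0.77.

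In the mevalonate arm 5 of 8 genes fell in LGR5- cells and 3 in LGR5+ cells, and all 8 log2 fold changes were negative in both populations, from -1.57 to -0.59 and from -1.88 to -0.14. Values per library are given below as CPM in the order of replicates 1, 2 and 3, and log2 fold changes, always of treated over untreated cells, with their standard error (SE). *Fdps* (ENSMUSG00000059743, chromosome 3 from 89093588 to 89101959), which makes farnesyl diphosphate, had 8.18, 7.79 and 7.16 CPM in untreated LGR5- cells and 3.18, 2.17 and 3.89 CPM after 5-FU. The LGR5+ values were 10.7, 4.61 and 7.35 CPM untreated and 1.69, 2.42 and 2.05 CPM treated. Its treated libraries all lay below the untreated ones in each population. This was a log2 fold change of -1.33 ± 0.32 (SE, edgeR adjusted *P* = 0.0122) in LGR5- and of -1.88 ± 0.33 (SE, edgeR adjusted *P* = 0.00138) in LGR5+ cells. *Fdps* had only 30 to 185 reads per library, shares 26.7% of its exon bases with the annotated gene *Gm43738* on the same strand (13 reads over all libraries). It also has processed copies in the genome, so its count is uncertain.

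*Pmvk* (ENSMUSG00000027952, chromosome 3 from 89454541 to 89469013) and *Mvd* (ENSMUSG00000006517, chromosome 8 from 122433601 to 122443422) encode the enzymes that add the last phosphate to mevalonate and then remove its carboxyl group. *Pmvk* had 90.2, 109 and 64.1 CPM in untreated and 53.4, 53.2 and 49.3 CPM in treated LGR5- cells. The LGR5+ cells had 88.5, 71.3 and 90.8 CPM untreated and 45.1, 42.8 and 42.6 CPM treated. The treated libraries were close together and below every untreated library of the same population. *Pmvk* changed by -0.76 ± 0.19 (SE, edgeR adjusted *P* = 0.0149) on the log2 scale in LGR5- cells and by -0.94 ± 0.19 (SE, edgeR adjusted *P* = 0.00380) in LGR5+ cells. *Mvd* had 61.5, 67.5 and 36.8 CPM in untreated and 31.9, 36.0 and 17.3 CPM in treated LGR5- cells. Untreated LGR5+ cells had 62.8, 41.7 and 55.2 CPM and treated ones 30.2, 27.5 and 26.7 CPM. In LGR5- cells untreated replicate 3 came within 1 CPM of treated replicate 2, while the LGR5+ groups were further apart. Its log2 fold change was -0.96 ± 0.27 (SE, edgeR adjusted *P* = 0.0272) in LGR5- cells and -0.92 ± 0.27 (SE, edgeR adjusted *P* = 0.0314) in LGR5+ cells.

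*Acat2* (ENSMUSG00000023832, chromosome 17 from 12942890 to 12960747), the cytosolic thiolase that joins a pair of acetyl-CoA molecules, had 230.4, 195 and 87.3 CPM in untreated and 70.6, 71.2 and 30.1 CPM in treated LGR5- cells. Untreated replicate 3 and treated replicate 3 were the low libraries of their groups, and the groups did not overlap. At -1.57 ± 0.39 (SE, edgeR adjusted *P* = 0.0135), its log2 fold change in LGR5- cells was the lowest of the arm. In LGR5+ cells it had 216, 98.7 and 164 CPM untreated and 95.8, 75.4 and 70.3 CPM treated, again without overlap. The log2 fold change there, -0.99 ± 0.38 (SE, edgeR adjusted *P* = 0.0960), did not pass the threshold. The near copy *Acat3* had 1 to 19 reads per library. *Mvk* (ENSMUSG00000041939, chromosome 5 from 114444269 to 114460591), mevalonate kinase, had 41.3, 49.4 and 28.0 CPM in untreated and 23.2, 30.4 and 22.4 CPM in treated LGR5- cells, where the groups overlapped at untreated replicate 3 and treated replicate 2. Its log2 fold change there was -0.64 ± 0.21 (SE, edgeR adjusted *P* = 0.0476). In LGR5+ cells *Mvk* had 41.5, 33.0 and 35.8 CPM untreated and 23.7, 23.8 and 25.8 CPM treated, with a log2 fold change of -0.59 ± 0.21 (SE, edgeR adjusted *P* = 0.0652).

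The highest fold change of the arm in both populations was that of *Fdft1* (ENSMUSG00000021273, chromosome 14 from 63145150 to 63179578), squalene synthase. It had 260.2, 244 and 138 CPM in untreated and 165, 162 and 100.5 CPM in treated LGR5- cells, against 259, 160.1 and 205 CPM and 203, 171 and 193 CPM in LGR5+ cells. The treated and untreated libraries overlapped in each population. Its log2 fold changes were -0.59 in LGR5- and -0.14 in LGR5+ cells (adjusted *P* = 0.160 and 0.775, edgeR). Of its exon bases 18.3% overlap *Ctsb* on the opposite strand, whose reads could not be told apart if counting ignored strand. The other members, *Hmgcs1*, which makes HMG-CoA, and *Idi1*, an isomerase of isoprenoid units, changed on the log2 scale by -1.05 and -1.25 in the LGR5- population and by -0.53 and -0.44 in the LGR5+ population, with overlapping groups and no call. Leaving out single libraries ended calls of this arm: in LGR5+ cells *Mvd* without any one library except untreated replicate 2 (adjusted *P* = 0.0585 to 0.124, edgeR). In LGR5- cells the calls ended for *Mvd* and *Pmvk* without untreated replicate 1 (adjusted *P* = 0.0896 and 0.0512, edgeR), untreated replicate 2 (0.114 and 0.0853) or 5-FU replicate 3 (0.1 and 0.0516). They ended for *Acat2* without untreated replicate 1 (0.0680) or 5-FU replicate 3 (0.0526), for *Fdps* without 5-FU replicate 2 (0.0579), and for *Mvk* without untreated replicate 1, untreated replicate 2, 5-FU replicate 1 or 5-FU replicate 3 (0.122 to 0.218).

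**Figure D3:**
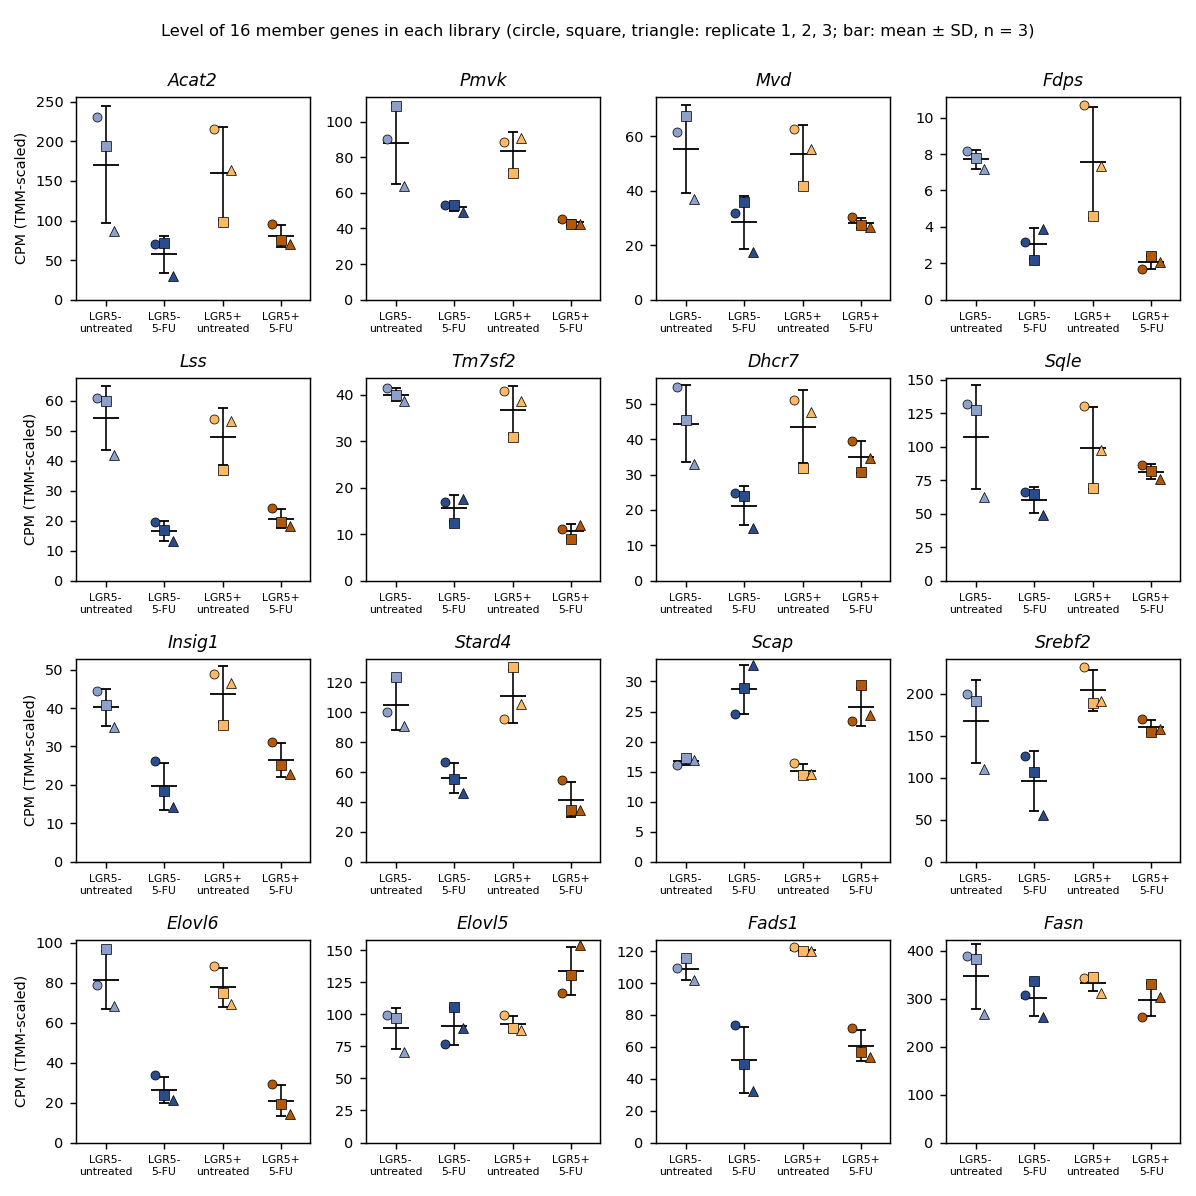
Each panel is 1 of 16 genes and each point 1 library, with circle, square and triangle for replicates 1, 2 and 3, the bar for the mean ± SD (n = 3), and the y axis in CPM from 0 on its own scale. *Lss*, *Tm7sf2*, *Elovl6*, *Stard4* and *Fads1* separate treated from untreated libraries in both populations, *Scap* does so upward, and *Sqle* and *Fasn* overlap.

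In the post-squalene arm 5 of 10 genes fell in LGR5- cells and 2 in LGR5+ cells. *Lss* (ENSMUSG00000033105, chromosome 10 from 76531588 to 76557138), lanosterol synthase, whose upstream stretch is printed above, had 61.0, 59.9 and 42.0 CPM in untreated LGR5- cells and 19.5, 16.9 and 13.1 CPM after 5-FU. In LGR5+ cells it had 53.8, 36.9 and 53.1 CPM untreated and 24.2, 19.6 and 18.2 CPM after 5-FU. Every treated library was below every untreated library, across populations as well. *Lss* was 3.29-fold lower after 5-FU in LGR5- cells, a log2 fold change of -1.72 ± 0.22 (SE, edgeR adjusted *P* = 0.000173), and 2.32-fold lower in LGR5+ cells, at -1.21 ± 0.22 (SE, edgeR adjusted *P* = 0.00161). *Tm7sf2* (ENSMUSG00000024799, chromosome 19 from 6062821 to 6068373), a sterol reductase that acts soon after lanosterol, had 41.5, 40.0 and 38.6 CPM in untreated and 17.01, 12.3 and 17.6 CPM in treated LGR5- cells. LGR5+ cells had 40.8, 31.0 and 38.6 CPM without and 11.1, 8.91 and 11.9 CPM with 5-FU. Every treated library lay below every untreated one, across populations as well. *Tm7sf2* changed by -1.36 ± 0.19 (SE, edgeR adjusted *P* = 0.000305) on the log2 scale in LGR5- cells and by -1.79 ± 0.19 (SE, edgeR adjusted *P* = 2.33e-05) in LGR5+ cells, where it had the smallest adjusted *P* of the 34 genes. It shares 12.1% of its exon bases with *Vps51* on the same strand, which had 5570 reads over all libraries, against 5273 of *Tm7sf2*.

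*Dhcr7* (ENSMUSG00000058454, chromosome 7 from 143823145 to 143848410), which makes cholesterol from its immediate precursor, *Sc5d* (ENSMUSG00000032018, chromosome 9 from 42251595 to 42264256), a sterol desaturase that acts just before it, and *Nsdhl* (ENSMUSG00000031349, chromosome X from 72918557 to 72958514), which helps remove methyl groups from lanosterol, fell in LGR5- cells and were not called in LGR5+ cells. *Dhcr7* had 54.7, 45.4 and 32.9 CPM in untreated and 24.8, 23.9 and 14.9 CPM in treated LGR5- cells, without overlap, a log2 fold change of -1.06 ± 0.25 (SE, edgeR adjusted *P* = 0.00961). In LGR5+ cells it had 51.0, 31.8 and 47.8 and 39.5, 30.7 and 34.8 CPM, which overlapped, with a log2 fold change of -0.31 ± 0.24 (SE, edgeR adjusted *P* = 0.428). For *Sc5d*, 72.7, 69.1 and 52.2 CPM in untreated and 37.7, 36.2 and 31.0 CPM in treated LGR5- cells did not overlap (log2 fold change -0.89 ± 0.23, SE, edgeR adjusted *P* = 0.0175). In LGR5+ cells its 78.9, 37.8 and 60.8 CPM untreated and 52.2, 46.3 and 48.4 CPM treated overlapped (log2 fold change -0.27, adjusted *P* = 0.467, edgeR). *Nsdhl* had 128, 131 and 71.9 CPM in untreated and 63.9, 74.8 and 57.7 CPM in treated LGR5- cells, where untreated replicate 3 lay among the treated libraries. The log2 fold change there was -0.75 ± 0.24 (SE, edgeR adjusted *P* = 0.0478). In LGR5+ cells 122, 73.6 and 108 CPM untreated and 77.4, 70.2 and 87.0 CPM treated gave -0.37 ± 0.24 (SE, edgeR adjusted *P* = 0.338) on the log2 scale.

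*Sqle* (ENSMUSG00000022351, chromosome 15 from 59315077 to 59331192), squalene epoxidase, a rate-limiting enzyme of the sterol branch, was called in neither population. It had 132, 128 and 62.2 CPM in untreated and 66.2, 64.9 and 48.9 CPM in treated LGR5- cells. Its values in LGR5+ cells were 130.4, 69.1 and 97.8 CPM untreated and 86.7, 82.1 and 75.7 CPM treated. Untreated replicate 3 of LGR5- cells lay below 2 of the 3 treated libraries of its population, and untreated replicate 2 of LGR5+ cells below all 3. On the log2 scale *Sqle* changed by -0.84 ± 0.28 (SE, edgeR adjusted *P* = 0.0544) in LGR5- and by -0.28 ± 0.28 (SE, edgeR adjusted *P* = 0.537) in LGR5+ cells. The highest fold change of the arm was that of *Hsd17b7* (ENSMUSG00000026675, chromosome 1 from 169949535 to 169969241), a ketosteroid reductase of lanosterol trimming. It had 80.9, 70.8 and 34.2 CPM in untreated and 65.6, 70.4 and 59.8 CPM in treated LGR5- cells. The LGR5+ values were 76.3, 35.2 and 49.5 CPM untreated and 73.2, 81.3 and 80.2 CPM treated. The groups overlapped, at log2 fold changes of 0.07 and 0.54 (adjusted *P* = 0.901 and 0.236, edgeR). The lanosterol demethylase *Cyp51*, the methyl sterol oxidase *Msmo1* and the isomerase *Ebp* had log2 fold changes of -0.80, -0.82 and -0.07 in LGR5- cells. In those sorted as LGR5+ they were 0.03, -0.31 and 0.20, and none was called. In LGR5- cells the call ended for *Sc5d* without untreated replicate 1, untreated replicate 2 or 5-FU replicate 3 (adjusted *P* = 0.0691, 0.0594 and 0.0693, edgeR) and for *Nsdhl* without any one library except untreated replicate 3 (0.0671 to 0.173). *Lss*, *Tm7sf2* and *Dhcr7* kept theirs without any one library.

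Among the regulators and carriers *Insig1* and *Stard4* fell and *Scap* rose in both populations, and the genes of the SREBPs themselves were not called. *Insig1* (ENSMUSG00000045294, chromosome 5 from 28071363 to 28078662), which retains SCAP in the endoplasmic reticulum and is itself an SREBP target, had 44.5, 40.9 and 35.1 CPM in untreated and 26.2, 18.4 and 14.2 CPM in treated LGR5- cells. In LGR5+ cells it had 49.0, 35.5 and 46.6 CPM untreated and 31.3, 25.2 and 22.7 CPM treated. Neither population overlapped, and treated replicate 3 was the lowest in each. *Insig1* changed by -1.03 ± 0.22 (SE, edgeR adjusted *P* = 0.00648) and -0.73 ± 0.22 (SE, edgeR adjusted *P* = 0.0376) on the log2 scale in the LGR5- and LGR5+ populations. *Stard4* (ENSMUSG00000024378, chromosome 18 from 33199355 to 33213862), which moves sterols between membranes, had 100.1, 124 and 91.0 CPM in untreated and 66.5, 55.6 and 46.1 CPM in treated LGR5- cells. The LGR5+ cells had 95.8, 131 and 106 CPM untreated and 54.9, 34.2 and 34.8 CPM treated. Its groups did not overlap either. *Stard4* changed by -0.91 ± 0.22 (SE, edgeR adjusted *P* = 0.0133) on the log2 scale in LGR5- cells and by -1.42 ± 0.23 (SE, edgeR adjusted *P* = 0.000652) in LGR5+ cells.

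*Scap* (ENSMUSG00000032485, chromosome 9 from 110333288 to 110384950), the escort of the SREBPs, had 16.1, 17.2 and 16.9 CPM in untreated and 24.6, 28.9 and 32.7 CPM in treated LGR5- cells. Untreated LGR5+ cells had 16.3, 14.4 and 14.6 CPM and treated ones 23.4, 29.4 and 24.4 CPM. The untreated libraries of both populations lay within 3 CPM of each other, and every treated library was above them. *Scap* was 1.72-fold higher after 5-FU in LGR5- cells, at 0.78 ± 0.17 (SE, edgeR adjusted *P* = 0.00582) on the log2 scale, and 1.70-fold higher in LGR5+ cells, at 0.77 ± 0.17 (SE, edgeR adjusted *P* = 0.00591). *Srebf2* (ENSMUSG00000022463, chromosome 15 from 82147181 to 82205379), the SREBP gene mainly tied to sterol synthesis, had 199.6, 191 and 110.4 CPM in untreated and 125, 106 and 56.0 CPM in treated LGR5- cells. LGR5+ cells had 232, 189 and 191 CPM without and 169.8, 154 and 158 CPM with 5-FU. Its groups overlapped in LGR5- cells, through untreated replicate 3, and not in LGR5+ cells. *Srebf2* changed by -0.80 ± 0.28 (SE, edgeR adjusted *P* = 0.0642) on the log2 scale in LGR5- cells and by -0.34 ± 0.27 (SE, edgeR adjusted *P* = 0.442) in LGR5+ cells. *Srebf1* (ENSMUSG00000020538, chromosome 11 from 60199089 to 60222581), mainly tied to fatty acid synthesis, had 84.5, 93.7 and 82.4 CPM in untreated and 73.8, 71.9 and 78.5 CPM in treated LGR5- cells. Its values in LGR5+ cells were 93.5, 101 and 95.9 CPM untreated and 90.9, 76.6 and 88.9 CPM treated. The treated libraries lay below the untreated ones in each population by a small margin, with log2 fold changes of -0.22 and -0.18 (adjusted *P* = 0.370 and 0.468, edgeR). In LGR5+ cells the call of *Insig1* ended without untreated replicate 1, untreated replicate 3, 5-FU replicate 2 or 5-FU replicate 3 (adjusted *P* = 0.122, 0.126, 0.139 and 0.173, edgeR). In LGR5- cells that of *Stard4* ended without untreated replicate 2 (0.0626) or 5-FU replicate 3 (0.0617).

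None of the 5 genes of fatty acid synthesis and its supply was called in either population, with log2 fold changes from -0.72 to -0.20 in LGR5- and from -0.80 to 0.12 in LGR5+ cells. *Fasn* (ENSMUSG00000025153, chromosome 11 from 120805846 to 120824547), fatty acid synthase, had 389, 383 and 269 CPM in untreated and 307, 336 and 261 CPM in treated LGR5- cells. The LGR5+ values were 342, 346 and 313 CPM untreated and 262, 329.9 and 303 CPM treated. Treated and untreated libraries overlapped in both. Its log2 fold change was -0.20 ± 0.19 (SE, edgeR adjusted *P* = 0.540) in LGR5- cells and -0.16 ± 0.19 (SE, edgeR adjusted *P* = 0.634) in LGR5+ cells. *Acss2* (ENSMUSG00000027605, chromosome 2 from 155517948 to 155585724), which makes acetyl-CoA from acetate, had the lowest fold change of the group in both populations and no overlap. It had 10.5, 11.4 and 17.6 CPM in untreated and 8.36, 7.32 and 8.29 CPM in treated LGR5- cells. The LGR5+ cells had 10.2, 13.3 and 20.2 CPM untreated and 9.33, 8.53 and 7.19 CPM treated. Its untreated libraries spread more than its treated ones, and the log2 fold changes of -0.72 and -0.80 did not pass the threshold (adjusted *P* = 0.0817 and 0.0522, edgeR). *Acly* (ENSMUSG00000020917, chromosome 11 from 100476353 to 100528000), which makes acetyl-CoA from citrate, had 142, 110.4 and 73.3 CPM in untreated and 77.4, 119.6 and 63.9 CPM in treated LGR5- cells. Untreated LGR5+ cells had 141, 95.1 and 139 CPM and treated ones 121, 153 and 134 CPM. It overlapped in both, at log2 fold changes of -0.32 and 0.12 (adjusted *P* = 0.473 and 0.814, edgeR). The carboxylase *Acaca* and the malic enzyme *Me1*, a source of NADPH, changed by -0.28 and -0.23 on the log2 scale in LGR5- cells, and by -0.30 and -0.17 in those sorted as LGR5+, with overlap.

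Of the 6 desaturases and elongases 3 fell in LGR5- cells and 2 in LGR5+ cells, where *Elovl6* had the lowest log2 fold change of the 34 genes. *Elovl6* (ENSMUSG00000041220, chromosome 3 from 129532355 to 129638495), which lengthens the products of fatty acid synthase, had 79.0, 97.1 and 68.5 CPM in untreated and 33.8, 24.0 and 21.4 CPM in treated LGR5- cells. In LGR5+ cells it had 88.6, 74.8 and 69.5 CPM untreated and 29.3, 19.04 and 14.5 CPM treated. All 6 treated libraries lay below all 6 untreated ones. *Elovl6* was 3.09-fold lower after 5-FU in LGR5- cells (-1.63 on the log2 scale, SE 0.25, edgeR adjusted *P* = 0.000761) and 3.70-fold lower in LGR5+ cells (-1.89, SE 0.26, edgeR adjusted *P* = 0.000187). *Elovl5* (ENSMUSG00000032349, chromosome 9 from 77917364 to 77984519), an elongase of polyunsaturated fatty acids, had 99.7, 96.8 and 70.4 CPM in untreated and 77.1, 106 and 89.2 CPM in treated LGR5- cells, with overlap. LGR5+ cells had 99.5, 89.6 and 88.0 CPM without and 117, 131 and 154 CPM with 5-FU, without overlap. It had the highest fold change of the group, 0.03 ± 0.19 (SE, edgeR adjusted *P* = 0.945) on the log2 scale in LGR5- cells and 0.53 ± 0.19 (SE, edgeR adjusted *P* = 0.0694) in LGR5+ cells.

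*Fads1* (ENSMUSG00000010663, chromosome 19 from 10182888 to 10196877), a desaturase of polyunsaturated fatty acids, had 109, 116 and 102 CPM in untreated and 73.7, 49.4 and 32.1 CPM in treated LGR5- cells. Its values in LGR5+ cells were 122, 119.8 and 120.0 CPM untreated and 71.7, 57.0 and 53.5 CPM treated. The untreated libraries were even and the treated ones spread downward, with no overlap. *Fads1* changed by -1.07 ± 0.24 (SE, edgeR adjusted *P* = 0.00774) on the log2 scale in LGR5- cells and by -0.99 ± 0.24 (SE, edgeR adjusted *P* = 0.0110) in LGR5+ cells. Its neighbour *Fads2* gave -1.03 and -0.32 with overlap and no call. *Scd2* (ENSMUSG00000025203, chromosome 19 from 44293674 to 44306864) and *Scd1* (ENSMUSG00000037071, chromosome 19 from 44394455 to 44407879) encode stearoyl-CoA desaturases, which make monounsaturated fatty acids. *Scd2* had 565, 644 and 575 CPM in untreated and 415, 409 and 357 CPM in treated LGR5- cells. The LGR5+ values were 594, 507 and 698 CPM untreated and 494, 420.3 and 452 CPM treated. Neither population overlapped. *Scd2* changed by -0.60 ± 0.19 (SE, edgeR adjusted *P* = 0.0433) on the log2 scale in LGR5- cells and by -0.40 ± 0.19 (SE, edgeR adjusted *P* = 0.167) in LGR5+ cells. *Scd1* had 88.0, 118 and 86.7 CPM in untreated and 77.9, 101 and 104 CPM in treated LGR5- cells. The LGR5+ cells had 96.8, 87.2 and 98.5 CPM untreated and 79.5, 103 and 100.1 CPM treated. Its groups overlapped, with log2 fold changes of -0.04 and 0.0002 (adjusted *P* = 0.908 and 1, edgeR). The call of *Fads1* ended in LGR5+ cells without 5-FU replicate 2 (adjusted *P* = 0.0619, edgeR) or replicate 3 (0.0682), and that of *Scd2* in LGR5- cells without any one library except untreated replicate 3 (0.0682 to 0.140).

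**Figure D4:**
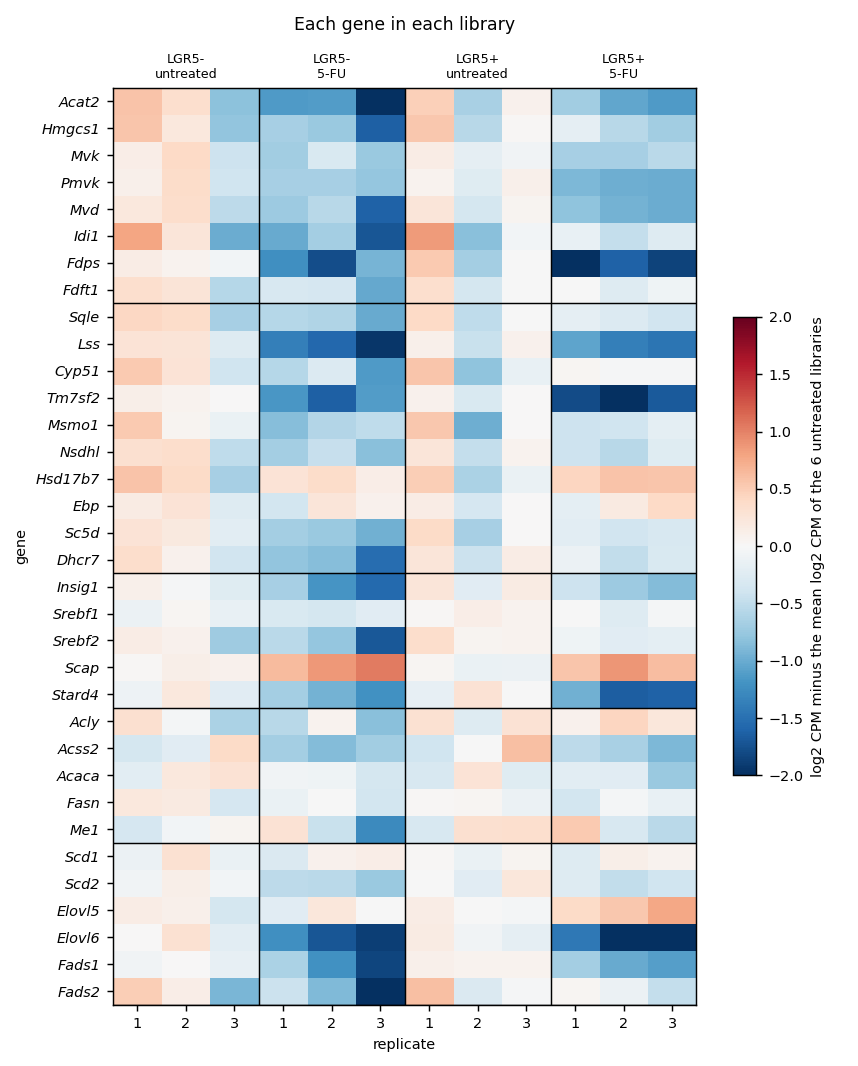
Rows are the 34 genes by role and columns the 12 libraries, and color gives the log2 CPM minus the gene's mean log2 CPM over the 6 untreated libraries, blue for lower and red for higher. The color scale ends at 2 in both directions and the values run from -2.44 to 1.04. The columns of untreated LGR5- replicate 3 and untreated LGR5+ replicate 2 are blue in most rows of the mevalonate and post-squalene arms, and *Scap* is red in all 6 treated columns.

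Pairs of genes that act next to each other or in the same system were also set side by side within each library, as reads of 1 gene per 100 reads of the other. Such a ratio does not depend on the scaling between libraries. The pairs were chosen after the values were seen and were not tested. *Insig1* had 208 to 320 reads per 100 reads of *Scap* in the 6 untreated libraries and 43.5 to 134 in the 6 treated ones. *Elovl6* had 78.9 to 100.3 reads per 100 of *Elovl5* untreated and 9.44 to 43.8 treated. Nor did the ranges overlap for *Lss* per 100 reads of *Cyp51*, the next step (38.3 to 67.4 and 19.3 to 30.1), for *Acat2* per 100 reads of *Hmgcs1*, also the next step (121 to 140.0 and 77.6 to 99.2), or for *Fads1* per 100 reads of *Fasn* (28.1 to 38.4 and 12.3 to 27.3). They overlapped for *Tm7sf2* per 100 reads of *Msmo1*, *Scd2* per 100 of *Scd1* and *Stard4* per 100 of *Srebf2*.

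**Figure D5:**
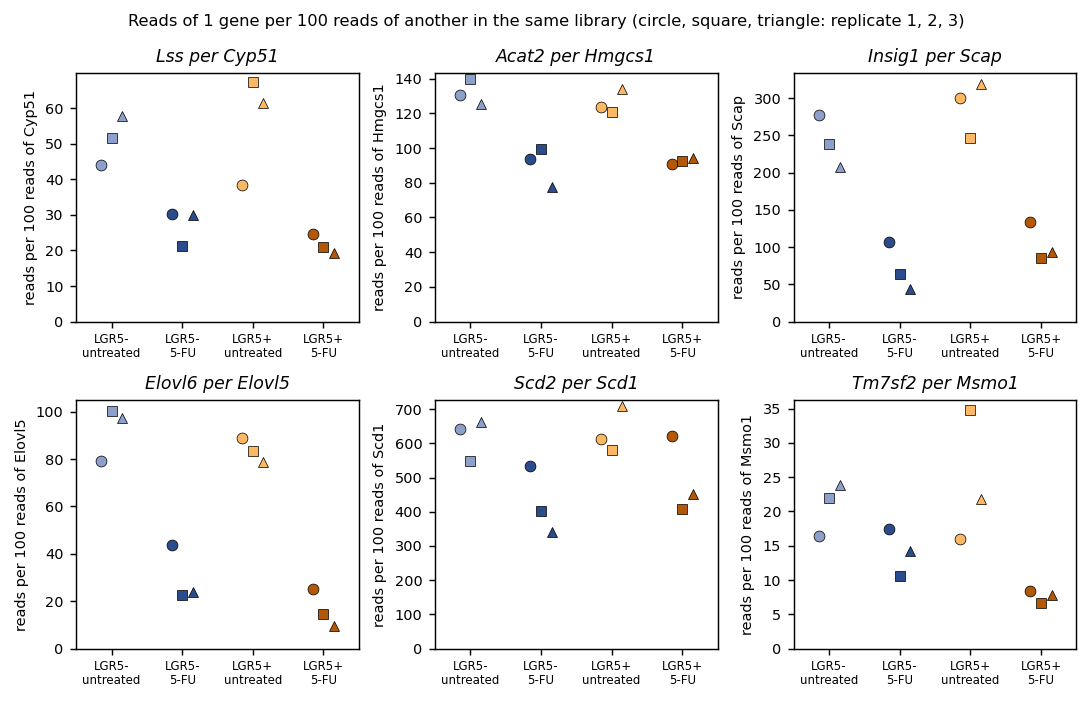
Each panel gives the reads of 1 gene per 100 reads of another (linear y axis from 0) in each library, with circle, square and triangle for replicates 1, 2 and 3 of the 4 groups on the x axis. Treated libraries lie below all untreated ones for *Lss* per *Cyp51*, *Acat2* per *Hmgcs1*, *Insig1* per *Scap* and *Elovl6* per *Elovl5*, and overlap them for *Scd2* per *Scd1* and *Tm7sf2* per *Msmo1*.

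The next question was whether the sorted populations differed from each other. Without drug they did not differ in any member at an adjusted *P* under 0.05 (0 of 34, and 0.0% of all genes), and no member had an unadjusted *P* under 0.05 by edgeR, against 1.32% of all genes. Log2 fold changes of LGR5+ over LGR5- cells lay between -0.22 and 0.29, with a median of -0.05 against -0.02 over all genes. All 18 genes of the mevalonate and post-squalene arms were on the negative side, from -0.22 to -0.02, each smaller than its standard error. The only member whose libraries did not overlap was *Fads1* (2.7% of all genes did not overlap upward and 2.57% downward). It had 122, 119.8 and 120.0 CPM in LGR5+ and 109, 116 and 102 CPM in LGR5- cells (0.15 ± 0.24 on the log2 scale, SE, edgeR adjusted *P* = 1).

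After 5-FU, again no member was called between LGR5+ and LGR5- cells (0 of 34, and 0.0% of all genes), and 5 had an unadjusted *P* under 0.05 by edgeR, against 13.0% of all genes. *Dhcr7*, *Srebf2*, *Acly* and *Elovl5* were on the higher side in LGR5+ cells, by 0.72, 0.74, 0.64 and 0.56 on the log2 scale, and *Tm7sf2* on the lower side, by -0.55 (adjusted *P* = 0.348, 0.357, 0.368, 0.348 and 0.348, edgeR). All LGR5+ libraries lay above all LGR5- libraries in 12 members and below in 2, against 14.2% and 10.2% of all genes. The 12 were *Idi1*, *Fdft1*, *Sqle*, *Cyp51*, *Msmo1*, *Hsd17b7*, *Sc5d*, *Dhcr7*, *Srebf2*, *Acly*, *Scd2* and *Elovl5*, of which 8 belong to the sterol arms, and the 2 were *Pmvk* and *Tm7sf2*. The median log2 fold change was 0.26, against 0.03 over all genes. With the replicate number as a block, which pairs these libraries, 10 members had an unadjusted *P* under 0.05 against 16.4% of all genes, none was called, and the smallest adjusted *P* was 0.201 (*Srebf2*, edgeR). In a blocked fit of the 6 treated libraries alone, chosen after seeing the data, 16 had an unadjusted *P* under 0.05, 12 higher and 4 lower in LGR5+ cells, against 27.7% of all genes. The smallest adjusted *P* was 0.0508 (*Fads2*, edgeR), so no member was called, against 2.97% of all genes.

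The difference between the 5-FU responses was then tested itself. No member was called (0 of 34, and 0.0% of all genes), and *Dhcr7* alone had an unadjusted *P* under 0.05, against 1.57% of all genes. Its response was higher in LGR5+ than in LGR5- cells by 0.75 on the log2 scale (SE 0.34, edgeR unadjusted *P* = 0.0471 and adjusted *P* = 1). For 26 of the 34 genes, and 15 of the 18 sterol genes, the fitted response was lower in LGR5- than in LGR5+ cells. This held for a smaller share of all genes, 8801 of 16157. The median difference was 0.29, against 0.04 over all genes. The higher number of genes called in LGR5- than in LGR5+ cells is therefore not a difference between the populations that this test called for any gene.

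Sums over marker genes of other cell types were set beside those of the synthesis genes. Among untreated libraries the 18 sterol genes summed to 2126, 1943 and 1184 CPM in replicates 1, 2 and 3 of LGR5- cells and to 2098, 1130 and 1637 CPM in those of LGR5+ cells. In the same order, 6 alveolar type 2 marker genes, among them genes of surfactant proteins, summed to 16520, 17410 and 3474 CPM and to 15740, 5830 and 4926 CPM, and none of the 6 was at 0 in all libraries. Replicate 3 of LGR5- cells was lowest in both sums, while in LGR5+ cells replicate 2 was lowest in the sterol sum and replicate 3 in the alveolar type 2 sum. After 5-FU the sterol sums were 1052, 1181 and 893 CPM in LGR5- and 1310, 1244 and 1333 CPM in LGR5+ cells. The alveolar type 2 sums were 4034, 5708 and 6142 CPM and 2731, 4771 and 5720 CPM in the same order, so that treated replicate 3 of LGR5- cells had the lowest sterol sum and the highest alveolar type 2 sum of the treated libraries. The alveolar type 2 sums are almost wholly *Sftpc*, with a mean of 12410 of the 12470 CPM in untreated LGR5- cells, and *Sftpc* was not called (adjusted *P* = 0.147 in LGR5- and 0.228 in LGR5+ cells, edgeR). Of the other markers on the list *Napsa* rose in LGR5- cells and *Lamp3* and *Slc34a2* rose in LGR5+ cells. *Sftpb* had a mean of 20.8 CPM in untreated and 16.3 CPM in treated LGR5- cells and was not called. The 7 squamous markers summed to 35.3 to 120 CPM in untreated libraries, 194 to 487 CPM in treated LGR5- and 853 to 1420 CPM in treated LGR5+ libraries. All 7 rose in both populations. In the same order, the 5 cholangiocyte markers summed to 2361 to 3087, 3412 to 7768 and 7970 to 11870 CPM. Of these *Krt19* and *Krt7* rose in both populations, by 2.35 and 1.75 on the log2 scale in LGR5- and by 2.95 and 2.64 in LGR5+ cells, and *Epcam*, *Sox9* and *Spp1* were not called in either. *Epcam* had a mean of 1374 CPM in untreated and 971 CPM in treated LGR5- cells. Among the remaining lists *Afp*, *Fabp4* and the lysosomal protein gene *Cd68* rose in both populations and *Pdgfrb*, a fibroblast marker, fell in both. *Cd68* had 5.94 to 13.0 CPM untreated and 16.6 to 52.4 CPM treated, and made up nearly all of the macrophage sum, in which *Adgre1*, *C1qa* and *Csf1r* stayed below 1 CPM. The part of these shifts in the changes of the synthesis genes was not tested. With both libraries of LGR5- replicate 3 left out, 20 members were called in LGR5- cells, 19 of them lower. The share of all genes called in that fit is not given here, so the count alone is not a result about the members. The median log2 fold change there was -0.87 over the members and 0.01 over all genes.

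Genes that handle the products of the pathways were counted from lists written from general knowledge. Of 19 genes of sterol handling and regulation, 18 were tested (*Hsd3b7* was not), and 3 were called in each population, a share close to the 15.4% and 16% of all genes. In LGR5- cells *Soat1*, which esterifies cholesterol for storage, and *Erlin1*, an endoplasmic reticulum protein of sterol control, fell and *Nr1h3*, the oxysterol receptor LXR alpha, rose. In LGR5+ cells *Soat1* fell, and *Abcg1*, a cholesterol exporter, and *Erlin2* rose. *Soat1* had 171, 162 and 125 CPM in untreated and 83.2, 66.5 and 66.3 CPM in treated LGR5- cells. Untreated LGR5+ cells had 169, 129 and 141 CPM and treated ones 96.6, 78.3 and 82.8 CPM. Neither population overlapped. Its log2 fold change was -1.09 ± 0.19 (SE, edgeR adjusted *P* = 0.00159) and -0.77 ± 0.19 (SE, edgeR adjusted *P* = 0.0112), in that order. *Nr1h3* changed by 1.28 ± 0.32 (SE, edgeR adjusted *P* = 0.0149) in LGR5- cells, and *Abcg1* by 1.65 ± 0.51 (SE, edgeR adjusted *P* = 0.0387) in LGR5+ cells, from untreated levels of 0.520, 0.430 and 0.299 CPM. For *Erlin1* in LGR5- cells the change was -0.95 ± 0.24 (SE, edgeR adjusted *P* = 0.0141), and for *Erlin2* in LGR5+ cells it was 0.79 ± 0.24 (SE, edgeR adjusted *P* = 0.0364). The list's median log2 fold change was 0.02 in LGR5- and 0.03 in LGR5+ cells, against -0.05 and -0.02 over all genes.

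Of 24 further genes of fatty acid and glycerolipid synthesis, 23 were tested (*Elovl3* was not), and 4 fell and 1 rose in LGR5- cells, while 4 fell and 2 rose in LGR5+ cells, against 15.4% and 16% of all genes called. *Acacb*, the mitochondrial acetyl-CoA carboxylase, *Mlxipl*, a carbohydrate-responsive activator of lipid synthesis, and *Tecr*, the last enzyme of each elongation round, fell in both. *Lpin1*, a phosphatidate phosphatase, rose in both. *Mlxipl* had 17.2, 12.3 and 30.9 CPM in untreated and 9.12, 5.80 and 6.46 CPM in treated LGR5- cells. LGR5+ cells had 18.2, 18.4 and 22.8 CPM without and 7.31, 5.67 and 5.73 CPM with 5-FU. The groups did not overlap in either population, and its log2 fold change was -1.496 ± 0.30 (SE, edgeR adjusted *P* = 0.00395) and -1.67 ± 0.30 (SE, edgeR adjusted *P* = 0.00162). *Tecr* had 611, 742 and 448 CPM in untreated and 365, 382 and 337 CPM in treated LGR5- cells. Its values in LGR5+ cells were 616, 575 and 614 CPM untreated and 365, 345 and 348 CPM treated. It did not overlap in either population, at -0.73 ± 0.20 (SE, edgeR adjusted *P* = 0.0221) and -0.77 ± 0.20 (SE, edgeR adjusted *P* = 0.0159). For *Acacb*, which lay below 4 CPM throughout, the log2 fold changes were -2.06 ± 0.66 (SE, edgeR adjusted *P* = 0.0485) and -2.82 ± 0.69 (SE, edgeR adjusted *P* = 0.0117). The acyl-CoA synthetases *Acsl3* in LGR5- cells and *Acsl4* in LGR5+ cells had log2 fold changes of -0.94 ± 0.22 (SE, edgeR adjusted *P* = 0.0111) and -0.59 ± 0.19 (SE, edgeR adjusted *P* = 0.0424). *Lpin1* changed by 0.75 ± 0.22 (SE, edgeR adjusted *P* = 0.0321) in LGR5- cells and by 0.68 ± 0.22 (SE, edgeR adjusted *P* = 0.0489) in LGR5+ cells. *Elovl7*, an elongase, changed by 0.45 ± 0.15 (SE, edgeR adjusted *P* = 0.0498) in LGR5+ cells. *Acacb* in LGR5- cells and *Lpin1* and *Elovl7* in LGR5+ cells were named after their values were seen. The list's median log2 fold change was -0.32 in LGR5- and -0.12 in LGR5+ cells, against -0.05 and -0.02 over all genes.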

How the data were processed

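RNA was purified on columns and amplified by a SMARTer kit before paired-end sequencing with reads of 150 bases. The authors deposited whole-number read counts per Ensembl mouse gene for 12 libraries, 3 in each of 4 groups, without normalization. The submitters' processing notes name HISAT2, HISAT, TopHat2 and HTSeq and the build mm8, without roles, so whether counting used strand is not given in the sources used here. Positions and exon lengths here are those of GENCODE M21 on GRCm38, matched by gene identifier (46488 of 47069 identifiers had a symbol, 581 did not), and describe that annotation, not the authors' counting. Promoter windows are RefSeq's on GRCm38.p6.

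Counts were analysed in R 4.3.3. filterByExpr with the groups kept 16157 genes, which edgeR 4.0.16 scaled by TMM and fitted with robust glmQLFit on 4 group means over all 12 libraries (common dispersion 0.0708, a coefficient of variation of 26.6%). glmQLFTest gave 5 contrasts, adjusted by Benjamini-Hochberg over all genes tested. The script was tested on simulated counts with known changes. The standard error is the absolute log2 fold change divided by the square root of F. Exact permutation tests of 3 libraries against 3 cannot give a *P* under 0.1 and are not printed. RPKM are TMM-scaled CPM per kilobase of exon union. No 2 libraries of a group agreed within sampling noise (chi-square per degree of freedom 15.1 to 124). The closest pair of all was replicate 1 of untreated LGR5- and of untreated LGR5+ cells (4.42), and the closest treated pair was replicate 2 of LGR5- and of LGR5+ cells (18.2), so libraries of opposite sorts could lie closer than replicates. Reads amplified by PCR are not independent molecules, so limits from counts cover counting error only.

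The genes and lists were chosen with earlier results of these data known. Genes given library by library are those called in any comparison, the highest and lowest fold change of each role in each 5-FU comparison, and *Sqle*, *Insig1*, *Srebf1*, *Srebf2*, *Fasn*, *Scd1* and *Scd2*. Of the other pathway genes, up to 4 per list and comparison with the smallest adjusted *P* were named. Marker lists covered hepatocytes, cholangiocytes, alveolar type 2 and squamous cells, adipocytes, macrophages, endothelial cells and fibroblasts. The alternatives were DESeq2 1.42.0, its size factors (RLE) in edgeR, scaling by library size alone, dropping the filter or asking for 10 reads in all libraries, fitting only the libraries compared, a block for the replicate number, and leaving out each library in turn. Replicate numbers were taken to pair LGR5+ with LGR5- libraries after 5-FU. There, deviations of libraries with the same number from their group means correlated at 0.571, 0.217 and 0.304. Libraries with different numbers correlated at -0.395 to 0.117. For 5-FU in LGR5- cells the same-number values were 0.0546, 0.282 and 0.425, and others reached 0.307, so pairing there is unclear. Untreated LGR5+ and LGR5- libraries gave 0.481, -0.119 and 0.223, and 5-FU in LGR5+ cells gave -0.0848, -0.168 and 0.0184.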

Additional observations from a re-analysis of the deposited data

How the results depend on the processing

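The share of all genes called is given only for some of these fits, so a change in the count of members need not concern the members alone. In LGR5+ cells the number of the 34 genes called after 5-FU was 11 to 14 over the alternatives that kept every library, 10 to 12 of them lower. Median log2 fold changes in these fits ran from -0.42 to -0.32 over the members and from -0.10 to 0.0 over all genes. The number called was 7 to 10, with 6 to 9 lower, when 1 library was left out. There the medians ran from -0.51 to -0.22 over the members and from -0.03 to -0.007 over all genes. It was 14, with 12 lower, without both LGR5- replicate 3 libraries, an alternative chosen with earlier results of these data known (medians -0.33 and -0.01). Past the thresholds of the study there were 3 to 4. In LGR5- cells the number depended more on the choice of libraries. It was 10, of which 9 lower, when only the libraries compared were fitted, where 8.35% of all genes were called. Over the other alternatives that kept every library it was 14 to 20, with 13 to 19 lower. The medians there ran from -0.79 to -0.75 over the members and from -0.04 to 0.0 over all genes. The number called was 8 to 24, with 7 to 23 lower, when 1 library was left out, and the number past the thresholds of the study was then 1 to 4. No member was called between populations or for the difference between responses under any alternative tried. Of the 140 log2 fold changes of called genes recomputed in LGR5+ cells, 129 kept the call, 11 lost it and 0 changed sign, and of the 224 in LGR5- cells, 183 kept it, 41 lost it and 0 changed sign. *Tm7sf2*, *Lss*, *Elovl6* and *Scap* kept their calls in all 14 alternatives in both populations. *Scd2* lost its call in 9 alternatives in LGR5- cells. Scaling by library size alone moved the median of all genes in LGR5+ cells to -0.10 and that of the members to -0.42. With the replicate number as a block 11 members were called in LGR5+ cells and 20 in LGR5- cells. The share of all genes called with the block is not given here for these comparisons. In LGR5- cells the correlations of 0.0546, 0.282 and 0.425 leave it unclear whether the numbers pair the libraries. The block changed no call between populations, where it pairs the treated ones. For most changes of calls the cause was not tested, and fits without a library had fewer samples.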
